A study of Mus musculus with 366 samples.

Results

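The brown adipocyte and thermogenic genes measured here are a list of 32 genes that brown fat uses to burn fatty acids for heat, among them Ucp1, Cidea, Elovl3, Cox8b, Dio2 and Prdm16. Each gene was read from the brightest, by its mean, of the probe sets annotated to that gene alone. In this way 28 of the 32 genes were read, and they have 49 such probe sets, out of 17097 genes and 45141 probe sets on the array. Ppargc1a was left out because its probe sets are annotated to several genes, and Otop1, Zic1 and Gyk, which no listed probe set names, were not analysed here. Across the aortas of 101 mouse strains these genes differed widely in how much they varied. Cox8b, Ucp1 and Cidea were among the brightest probe sets of every array and differed little between mice, whereas Dio2, Elovl3, Adcy3, Clstn3 and Prdm16 differed several-fold between strains.

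Each sample was the aorta of 1 female F1 mouse on 1 array, in all 366 arrays. The father of each mouse was C57BL/6J and carried the human APOE-Leiden and CETP transgenes, and the mother came from 1 of the 101 strains of the Hybrid Mouse Diversity Panel, so all groups shared 1 C57BL/6J parent, both transgenes and the diet. The mice were 24 weeks old and had eaten chow for 8 weeks and then a Western diet for 16 weeks, and no group without the transgenes or on chow alone was analysed here. Of the strains, 95 had at least 2 arrays (360 arrays in all, at most 8 per strain), and among them were 31 classical inbred strains and 4 sets of recombinant inbred strains, of which BXD has 33, AXB/BXA 19, CXB 8 and BXH 4. The values are log2 intensities after robust multi-array averaging (RMA), so a difference of 1 is a 2-fold change in intensity, and intensities of different probe sets cannot be read as amounts of RNA. The labels give no batch or date and nothing on shared cages or litters, so p-values measure the spread between these mice only.

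Brown adipocytes oxidise fatty acids in many mitochondria, and the uncoupling protein encoded by Ucp1 lets protons back across the inner mitochondrial membrane so that the energy is released as heat. Noradrenaline from sympathetic nerves switches the programme on through beta-adrenergic receptors and cAMP, which releases fatty acids and induces genes such as Dio2, whose product makes active thyroid hormone inside the cell. Fat of this kind surrounds the thoracic aorta of mice, and according to the methods of the study the aortas were freed of the surrounding fat before RNA was extracted.

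Promoter windows of 250 bases before the transcription start (RefSeq, GRCm38.p6) were found for 24 of the 32 genes, in 33 windows. A cAMP response element, TGACGTCA, was searched on both strands because cAMP is the signal of the pathway, and it was found in the window of 1 gene, Dio2, and in 1.55% of all 32851 mouse windows. The windows of Ucp1 (chr8:83290098-83290347, plus strand) and Dio2 (chr12:90739039-90739288, minus strand) are shown because Ucp1 is the defining gene of the list and Dio2 had the widest range between strains. Letters are 5′ to 3′ on the strand of the gene, and capitals mark the cAMP response element.
Ucp1: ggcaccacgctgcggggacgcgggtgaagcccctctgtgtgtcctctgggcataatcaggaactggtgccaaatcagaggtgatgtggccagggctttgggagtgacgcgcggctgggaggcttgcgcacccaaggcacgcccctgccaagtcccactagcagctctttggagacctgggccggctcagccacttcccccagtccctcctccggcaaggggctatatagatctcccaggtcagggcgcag
Dio2: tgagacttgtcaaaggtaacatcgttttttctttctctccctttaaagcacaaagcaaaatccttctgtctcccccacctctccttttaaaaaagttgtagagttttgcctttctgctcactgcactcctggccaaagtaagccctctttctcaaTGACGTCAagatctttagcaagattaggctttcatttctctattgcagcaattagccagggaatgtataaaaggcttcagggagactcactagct
The element of Dio2 lies 95 bases before the start. A longer site of the estrogen-related receptors, TCAAGGTCA, was in no window of these genes and in 0.387% of all windows. A direct repeat of the receptor core site with 1 base between, AGGTCANAGGTCA, was likewise in none of them and in 0.0335% of all windows. The core site AGGTCA, which is part of both of these longer sites, was in the windows of 4 genes (Ckmt1, Letmd1, Slc27a2 and Ucp1) and in 14% of all windows. These matches describe letters of the reference genome and were not read from the mice.

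The brightest genes of the list were those of the mitochondria and lipid droplets. Cox8b, a cytochrome c oxidase subunit of heart and brown fat, ranged from 12.76 to 13.35 over the 366 arrays, with a median of 13.08. Ucp1 ranged from 12.33 to 13.20 with a median of 12.94, and Cidea, a lipid droplet protein of brown fat, from 12.23 to 12.96 with a median of 12.67. The lowest percentile that Ucp1 held among the probe sets of an array was 99.76. No array was low in these genes, although the tissue was labelled aorta and freed of fat.

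In all, 7 of the 28 genes had a mean of at least 12, a level that 0.463% of all probe sets reach. These were Cox8b, Ucp1, Cidea, Pdk4 (12.19, a kinase that holds back glucose oxidation), Gpd2 (12.13, mitochondrial glycerol phosphate dehydrogenase), Cox7a1 (12.10, another cytochrome c oxidase subunit) and Fabp3 (12.00, a fatty acid carrier). A further 8 genes had means between 10 and 12. They were Slc36a2 (11.07, an amino acid transporter), Pank1 (10.79, which makes coenzyme A), Letmd1 (10.69, a mitochondrial protein), Cpt1b (10.69, the gate of fatty acids into mitochondria), Ppargc1b (10.63, a coactivator), Elovl3 (10.41, a fatty acid elongase), Slc27a2 (10.38, a fatty acid transporter and acyl-CoA synthetase) and Ppara (10.15, a fatty acid receptor of the nucleus). Regulators and signals were mostly dimmer. Means between 6 and 10 were found for 9 genes, namely Kcnk3 (8.85, a potassium channel), Adcy3 (8.59, an adenylyl cyclase that makes cAMP), Ebf2 (8.47) and Prdm16 (6.70), both determinants of brown fat identity, the estrogen-related receptors Esrra (8.40) and Esrrg (6.78), Clstn3 (7.86, a calsyntenin), Dio2 (7.48) and Acot11 (7.47, a thioesterase). The last 4 genes, Bmp8b (4.12), Lhx8 (3.22), Ckmt1 (2.72) and Fgf21 (2.43), lay under 6, where 77.4% of all probe sets lie. These 4 were near the dim end of the array, and no detection calls were used.

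**Figure D1:**
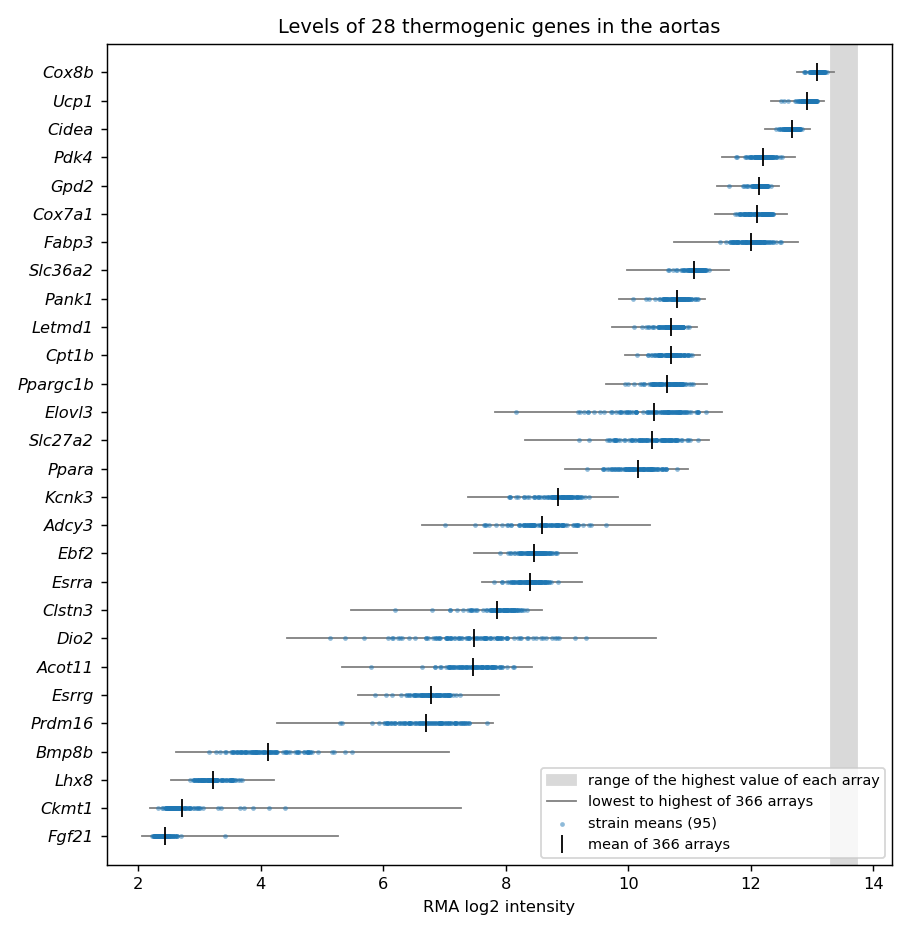
RMA log2 intensity of each of the 28 genes: grey lines run from the lowest to the highest of 366 arrays, blue points are the means of 95 strains, black ticks are the means of 366 arrays, and the grey band is the range of the brightest probe set of each array (13.31 to 13.73). Cox8b reaches the band and Ucp1 ends just under it, with narrow lines, while the lines of Dio2 and Elovl3 are several log2 units long.

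The closeness of the brightest genes to the top of the array was measured. The brightest probe set of an array had a value between 13.31 and 13.73, and Cox8b came within 0.160 of it on 1 array and lay at most 0.745 below it on any. For Ucp1 these gaps were 0.287 and 1.13, and for Cidea 0.525 and 1.28. In all, 6 of the 28 genes were at or above the 99th percentile of their array on every array, and 5 were when every probe set of a gene had to be. The deposited values hold no saturation marks, so how far the scale is compressed at this end was not tested.

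The spread among mice of 1 strain was smallest where the level was highest. The standard deviation (SD) among mice of a strain was 0.07 for Cox8b, 0.09 for Cidea and 0.11 for Ucp1, against 0.43 for Elovl3, 0.44 for Adcy3 and 0.75 for Dio2. Over the 24 genes with a mean of at least 6, mean and SD were related with a Spearman rho of -0.858, a description across genes, which share the arrays. The same holds in part for the array as a whole, where the median SD of all probe sets was 0.215 at levels of 6 to 8, 0.150 at 10 to 12 and 0.100 at 12 to 14. Most of the genes nevertheless varied more between mice than other probe sets as bright, with 26 of 28 above the median SD of their level class.

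**Figure D2:**
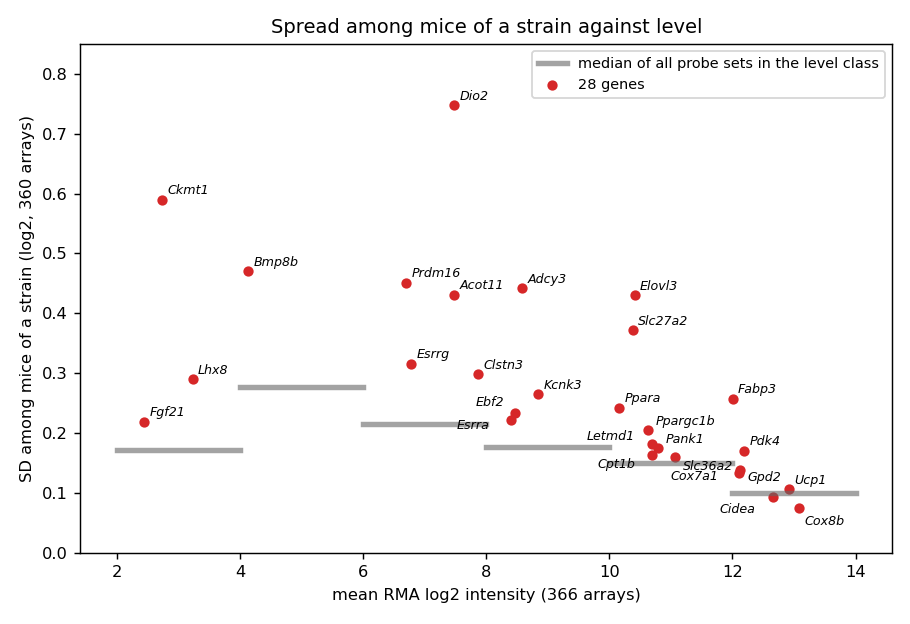
SD of log2 intensity among mice of a strain (360 arrays of 95 strains) against the mean level over 366 arrays, with 1 red point per gene, and grey bars for the median SD of all probe sets in each level class. Dio2 is highest at 0.75 and Cox8b lowest among the genes at 0.07, and 26 of the 28 points lie above the bar of their class.

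Markers of other tissues were read on the same arrays, and each list is given as its mean level. General adipocyte markers (6 read of 10) were high throughout, with means from 9.83 to 10.9 and a median of 10.6, and Fabp4 at 13.47 and Adipoq at 12.45 were their brightest. White adipocyte markers (8 of 10) lay between 5.13 and 6.70 and beige markers (5 of 6) between 3.94 and 4.90. Smooth muscle markers (6 of 8), which the labelled tissue should hold, ranged from 5.41 to 10.6 with a median of 8.62. Skeletal muscle markers (10 of 10) ranged from 3.03 to 12.4, cardiac markers (7 of 8) from 3.39 to 10.6, hepatocyte markers (7 of 8) from 2.42 to 9.75 and sympathetic nerve markers (5 of 6) from 2.69 to 8.41. The means of the adipocyte lists thus had narrower ranges over the arrays than those of the muscle lists. Single white adipocyte markers ranged widely all the same, such as Lep, which encodes leptin, from 2.45 to 7.97, Sncg from 5.63 to 10.03 and Retn from 7.80 to 11.05, and the strain means of Lep spanned 15.2-fold. In whole tissue, fewer cells of a type and less RNA per cell cannot be told apart.

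Strains were compared to learn which thermogenic genes follow the genetic background. Of the 28 genes, 27 differed among the 95 strains (limma F test, Benjamini-Hochberg adjusted p under 0.05 over 45141 probe sets), against a background of 77.0% of all probe sets, so a call by itself sets few genes apart. The one not called was Ckmt1, mitochondrial creatine kinase (adjusted p = 0.135). With the mean score of the general adipocyte markers as a covariate, 27 of 28 genes differed again, against 77.0% of all probe sets, and Ckmt1 had an adjusted p of 0.0556. The share of variance that lay among strains says more about size: its median was 39.5% over the 28 genes and 17.9% over all probe sets, and 20 of the 28 lay above the median of their level class. Since dim probe sets have low shares, the level classes are the closer comparison.

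Among the effectors of heat production the shares ranged from 5.06% for Ckmt1 to 54.1% for Cox7a1, with a median of 38.9% over 7 genes. Cox7a1 (adjusted p = 3.71e-26) was lowest in BXA24/PgnJ at 11.66, 11.86, 11.42 and 12.04 and highest in MA/MyJ at 12.39, 12.29, 12.34 and 12.42, and these arrays did not overlap. Ucp1 (share 43.9%, 95% interval 33.2 to 55.0, adjusted p = 2.99e-17) was lowest in LG/J at 12.48, 12.59, 12.34 and 12.58, a mean of 12.50 ± 0.11 (SD, n = 4). Its highest mean was that of BXD44/RwwJ, 13.08 ± 0.08 (SD, n = 4), from arrays of 13.03, 13.20, 13.08 and 13.01. The 2 strains do not overlap, yet the whole range of strain means of Ucp1 was 1.5-fold in intensity. That of Cox8b was 1.29-fold and that of Cidea 1.35-fold. The extreme strains were picked by their means, so the gap between them is a description.

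In the order of Ucp1 the next strains from the low end were CXB8/HiAJ (12.53 ± 0.13, n = 4), FVB/NJ (12.61 ± 0.24, n = 4), BXH8/TyJ (12.72 ± 0.18, n = 4) and BTBR T<+> tf/J (12.73 ± 0.13, n = 4). From the high end, below BXD44/RwwJ, they were AXB19b/PgnJ at 13.08, NZW/LacJ at 13.07, and BXD13/TyJ and BXH6/TyJ at 13.06. Neighbours in this order differed by less than the spread of their arrays, and the arrays of FVB/NJ alone ran from 12.33 to 12.90. C57BL/6J, the common parent, held rank 9 of 95 from the low end with 12.80 ± 0.12 (n = 6). Several of the low strains also stood out in their tissue markers. The arrays of LG/J had smooth muscle means of 9.84 to 10.6, at the top of the range of all arrays, and general adipocyte means of 10.2 to 10.5. Those of FVB/NJ had skeletal muscle means of 8.05 to 11.8, hepatocyte means of 3.38 to 4.84 and smooth muscle means of 5.67 to 7.27. The part of these tissues in the low Ucp1 values was not tested strain by strain.

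**Figure D3:**
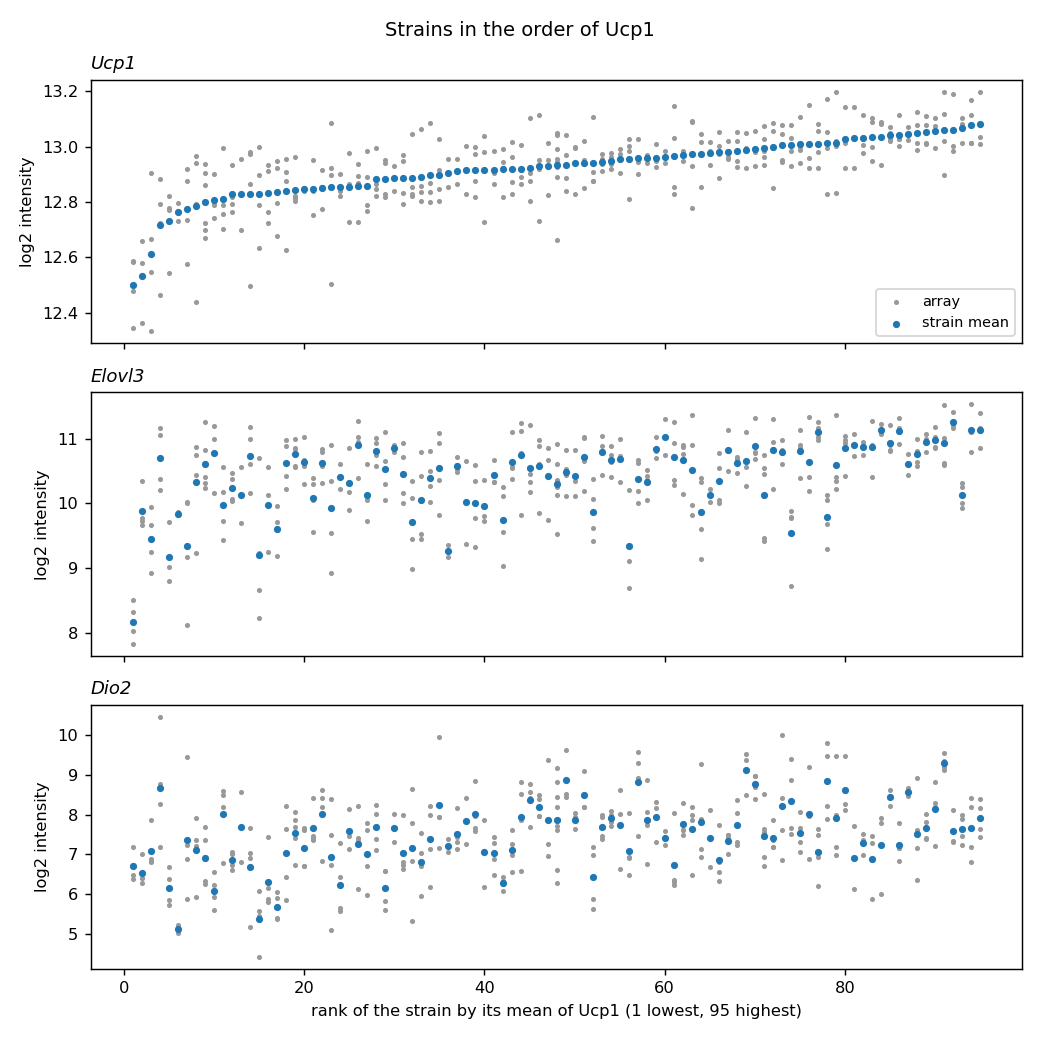
Log2 intensity of Ucp1, Elovl3 and Dio2 in the 95 strains, placed from left to right by the strain mean of Ucp1; grey points are arrays and blue points strain means. Ucp1 moves within 12.3 to 13.2, Elovl3 drops to 8.17 in LG/J at the far left, and Dio2 spreads from 5.13 to 9.30 with a biweight midcorrelation with Ucp1 over strain means of 0.45, against 0.50 for Elovl3.

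Genes of fatty acid supply and oxidation had a median share of 41.9% over 7 genes. Elovl3, which lengthens fatty acids in brown fat, had the highest share of the list at 56.3% (95% interval 46.4 to 66.0, adjusted p = 4.26e-29). Its 4 arrays of LG/J read 8.51, 8.32, 7.83 and 8.04, and the 3 arrays of BXD13/TyJ 11.41, 11.17 and 11.22, so the strain means spanned 8.52-fold. Slc27a2 spanned 3.84-fold, from BXD9/TyJ to BALB/cByJ (11.22, 11.15 and 11.03). The arrays of BXD9/TyJ fell into 2 pairs, with 8.32 and 8.38 in the one and 10.04 and 10.03 in the other, so this lowest mean rests on 2 of its 4 mice. Acot11 spanned 5.03-fold, again from LG/J (6.04, 6.32, 5.33 and 5.55) to SEA/GnJ (8.33, 8.27, 8.02 and 7.93). Fabp3, Pank1, Cpt1b and Pdk4 spanned 1.98-fold, 2.08-fold, 1.86-fold and 1.67-fold.

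Of the transcriptional regulators, whose median share was 33.9% over 7 genes, Ppara had the highest at 52.4% (adjusted p = 5.21e-25). It was lowest in CXB8/HiAJ (9.24, 9.37, 9.32 and 9.39) and highest in NZW/LacJ (10.98, 10.72, 10.94 and 10.55). Prdm16 spanned 5.24-fold, from CXB7/ByJ (4.85, 5.41, 4.82 and 6.13) to BXD87/RwwJ (7.71, 7.72, 7.71 and 7.63). The mice of CXB7/ByJ differed among themselves by more than 1 log2 unit, while those of BXD87/RwwJ lay between 7.63 and 7.72. Ppargc1b had a share of 46.5% and was lowest in BTBR T<+> tf/J at 9.94 and highest in NZW/LacJ at 11.06. Ebf2, Esrra and Esrrg had shares of 22.9%, 33.9% and 21.9%. The dim Lhx8 had 18.4%, with an adjusted p of 0.000104 that rose to 0.0519 when array 4 of every strain was left out.

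Signals, channels and transporters had the highest median share, 44.6% over 7 genes. Dio2 had the widest range of all 28 genes, 18.0-fold between strain means. Its arrays read 5.23 and 5.03 in NOD/ShiLtJ and 9.35, 9.19, 9.12 and 9.54 in BXH6/TyJ. Without NOD/ShiLtJ, whose arrays held hepatocyte markers as given below, the range was 15.1-fold, with SJL/J lowest at a mean of 5.38. Adcy3 spanned 6.20-fold, from LG/J (7.26, 7.06, 6.63 and 7.09) to BXD48/RwwJ (9.81, 10.36, 9.28 and 9.13). Clstn3 spanned 4.46-fold, from LG/J (6.19, 6.91, 5.47 and 6.18) to BXD38/TyJ (8.37 and 8.32), with an adjusted p of 2.60e-21. Kcnk3 spanned 2.45-fold and Slc36a2 1.59-fold. Bmp8b, a signal of brown fat of the BMP family, and Fgf21, a hormone, had their highest means in C3H/HeJ, with spreads among its mice that are given below.

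The lowest strains were counted for these genes only. The same counts over all probe sets were not made, so they do not set these genes apart from others. LG/J had the lowest mean of 11 of the 28 genes and the highest of 0, and NOD/ShiLtJ, with 2 arrays, the lowest of 4. The 11 include Elovl3, Acot11, Adcy3 and Clstn3. The ranges of these genes without LG/J, whose smooth muscle means were at the top as given above, were not computed. Among the 24 genes with a mean of at least 6, BTBR T<+> tf/J was among the 10 lowest strains for 16, NOD/ShiLtJ for 15 and LG/J, C58/J and SJL/J for 13 each. LG/J was among the 10 highest for 2 of these genes. NOD/ShiLtJ was also the strain with the highest mean of 6 of the 7 hepatocyte markers. The hepatocyte means of its arrays were 6.69 and 3.36, against a median of 2.64 over all arrays, with Alb, which encodes albumin, at 10.63 and 5.86. Dio2 was low on both, at 5.23 and 5.03. The genes lowest in it were Cox8b, Dio2, Cpt1b and Ebf2, and without it the ranges of Cpt1b and Ebf2 went from 1.86-fold to 1.65-fold and from 1.91-fold to 1.75-fold. With the hepatocyte score as a covariate 27 of the 28 genes differed among strains, as without it. Of all 45141 probe sets, 34524 were called with this covariate and 34765 without it. The test takes all strains together, so these counts cannot show what liver RNA did in a single strain. The part of liver RNA in the low values of NOD/ShiLtJ was not tested. At the other end BXD73/RwwJ, NZW/LacJ and BXD44/RwwJ were among the 10 highest for 10 genes each.

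The founder strains of the recombinant inbred sets were compared with C57BL/6J, whose 6 arrays served in each contrast, so the 4 contrasts share them. Few of the thermogenic genes passed the adjusted threshold. In A/J (n = 3) no gene passed (limma, adjusted p under 0.05), against 1.33% of all probe sets higher and 3.61% lower, although 3 of 28 had an unadjusted p under 0.05. This number was 7 in BALB/cJ, 8 in C3H/HeJ and 8 in DBA/2J, and its share over all probe sets was not counted. In BALB/cJ (n = 4), 0 genes were higher and 1 lower, against 1.63% and 4.67%. In C3H/HeJ (n = 8), 2 were higher and 1 lower, against 3.91% and 5.0%. With the adipocyte score as a covariate, 9 genes were called in C3H/HeJ in either direction, against 7.91% of all probe sets, where 3 had been called against 8.91%. In DBA/2J (n = 5), 1 was higher and 3 lower, against 1.40% and 2.29%. With so few genes called, no share of the 28 was set against the background by a test. Arrays of the groups did not overlap for 4 genes in A/J (9.47% of all probe sets), 5 in BALB/cJ (6.63%), 0 in C3H/HeJ (2.70%) and 3 in DBA/2J (4.07%).

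Ucp1 itself was not called in any of the 4, though in DBA/2J and C3H/HeJ this depended on the setting. The arrays of C57BL/6J read 12.67, 12.70, 12.94, 12.91, 12.72 and 12.86. Those of DBA/2J, the farthest from them, read 12.98, 13.03, 13.08, 12.96 and 12.93, a difference of 0.20 (SE 0.07, adjusted p = 0.0639). All but 1 of the DBA/2J arrays lay above every C57BL/6J array. The difference was 0.14 in A/J (adjusted p = 0.338), 0.04 in BALB/cJ (0.830) and 0.13 in C3H/HeJ (0.149). In DBA/2J it was called higher with array weights (0.15, adjusted p = 0.0371), among probe sets above the median mean (0.20, adjusted p = 0.0394), with the smooth muscle score as a covariate (0.21, adjusted p = 0.0316) and without C57BL/6J array 3 or 4 (adjusted p = 0.0383 and 0.0468). In C3H/HeJ it was called higher with the adipocyte score as a covariate (0.18, adjusted p = 0.0159) and without C3H/HeJ array 3 (0.17, adjusted p = 0.0490).

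Elovl3 was lower in BALB/cJ. Its arrays read 9.19, 9.58, 9.95 and 9.71, all below the C57BL/6J arrays of 10.24, 10.62, 10.82, 11.26, 10.31 and 10.40, a difference of -0.999 (SE 0.28, adjusted p = 0.0121). The call was lost without BALB/cJ array 1 (-0.86, adjusted p = 0.0671), without C57BL/6J array 4 (-0.87, adjusted p = 0.0506) and with the smooth muscle score as a covariate (-0.78, adjusted p = 0.0569). Smooth muscle means were 8.62 to 9.41 in BALB/cJ and 5.41 to 8.39 in C57BL/6J and did not overlap, and general adipocyte means were 10.3 to 10.5 and 10.5 to 10.7. Dio2 was also lower in BALB/cJ without overlap, at 5.37, 6.05, 5.41 and 5.90 against 6.34, 6.25, 7.36, 7.67, 6.87 and 6.94, and did not pass (adjusted p = 0.109).

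Fgf21 and Bmp8b were higher in C3H/HeJ, in part of its mice. Fgf21 read 5.27, 4.63, 2.31, 3.67, 3.24, 2.67, 2.78 and 2.75, against 2.27 to 2.53 in C57BL/6J, a difference of 1.04 (SE 0.12, adjusted p = 1.06e-13). All C3H/HeJ arrays but the third lay above every C57BL/6J array. The SE rests on the spread pooled over all strains, while the SD among the mice was 1.04 in C3H/HeJ and 0.0959 in C57BL/6J, and in the fit of the 5 founder groups alone the adjusted p was 0.0361. Fgf21 lay at a median percentile of 9.66 of the array, so the C57BL/6J values are at the dim end, where the difference on the log2 scale cannot be read as a fold of RNA. Bmp8b read 6.77, 5.62, 4.11, 7.08, 5.73, 4.39, 5.21 and 5.03 in the same order, against 4.19 to 5.15, a difference of 0.90 (SE 0.25, adjusted p = 0.0100). The third mouse was the lowest in both genes, and it was also the lowest of its group in Ucp1, at 12.66 against 12.89 to 13.05 in the others, and in Elovl3, at 9.54. Its array had the highest skeletal muscle mean of the group, 11.98, and the lowest general adipocyte mean, 10.37. Array 7, with a skeletal muscle mean of 11.54, was not the lowest in Fgf21 or Bmp8b. Skeletal muscle means had a median of 4.21 in C3H/HeJ and 8.09 in C57BL/6J, and the part of muscle was not tested. The call of Bmp8b was lost without C3H/HeJ array 1 (0.71, adjusted p = 0.0636), without array 4 (0.67, adjusted p = 0.0866) and when the fit held the 5 founder groups alone (adjusted p = 0.104). Tissue markers differed between these groups as well. Sympathetic nerve means were 7.63, 3.56, 7.26, 7.11, 3.13, 6.34, 7.68 and 7.54 in C3H/HeJ, in the order of the arrays above, and at most 4.95, with a median of 3.50, in C57BL/6J. Smooth muscle means were 8.32 to 9.76 and 5.41 to 8.39, and with that score as a covariate the differences were 1.09 for Fgf21 (adjusted p = 3.70e-14) and 1.13 for Bmp8b (adjusted p = 0.000692). The second array, with a nerve mean of 3.56, had the second highest Fgf21, and the third, with 7.26, the lowest, and the part of nerve tissue was not tested further. Lhx8, a dim gene, was lower in C3H/HeJ by -0.57 (adjusted p = 0.00760).

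In DBA/2J, Pdk4 read 12.01, 12.04, 12.10, 11.59 and 12.19, all below the C57BL/6J arrays of 12.33, 12.27, 12.33, 12.32, 12.60 and 12.48, a difference of -0.40 (SE 0.10, adjusted p = 0.00702). Without DBA/2J array 4 the difference was -0.31 and was no longer called (adjusted p = 0.115). Bmp8b, raised in C3H/HeJ, was lower in DBA/2J, at 3.28, 3.23, 3.72, 3.79 and 3.62 against 4.38, 4.19, 4.34, 4.95, 4.55 and 5.15 (-1.07, adjusted p = 0.0109), and did not pass in a fit of the 5 founder groups alone (adjusted p = 0.134). Slc27a2 was lower by -0.73 (adjusted p = 0.0404) and Prdm16 higher by 0.90 (adjusted p = 0.0343), both with overlapping arrays. The call of Slc27a2 was lost without any one of DBA/2J arrays 2, 4 and 5 and C57BL/6J arrays 1, 2, 3, 5 and 6, and that of Prdm16 without any one of DBA/2J arrays 2, 4 and 5 and C57BL/6J arrays 1 and 2. Skeletal muscle means had a median of 4.18 in DBA/2J and 8.09 in C57BL/6J, and hepatocyte means reached 5.04 and 3.19. White adipocyte means were 5.90 to 6.15 and 5.67 to 5.88 and did not overlap. General adipocyte means, 10.56 to 10.70 and 10.48 to 10.67, did overlap. The part of these tissues in the differences was not tested.

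**Figure D4:**
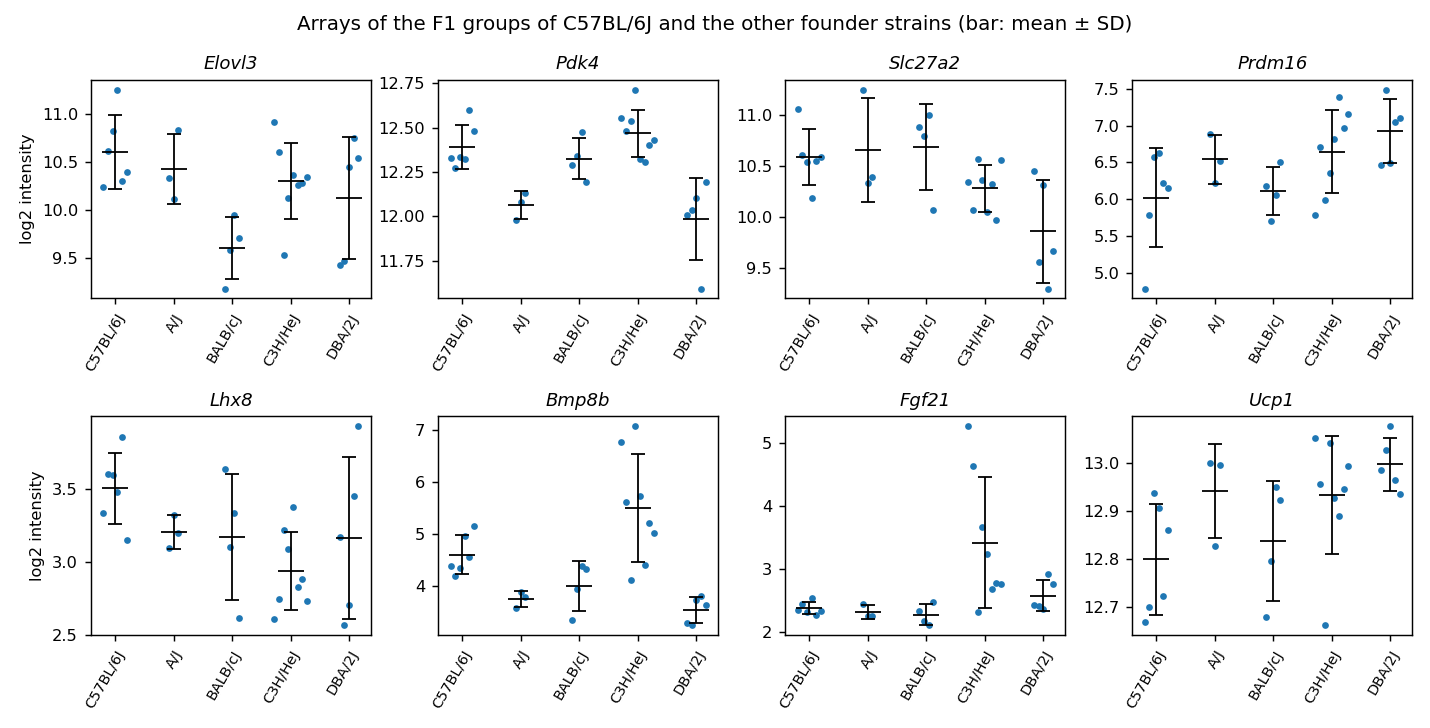
Log2 intensity of the 7 genes called in any founder contrast, and of Ucp1, in the F1 groups of C57BL/6J (6 arrays), C3H/HeJ (8), DBA/2J (5), BALB/cJ (4) and A/J (3); points are arrays and bars are means ± SD, with an axis of its own for each gene. Elovl3 of BALB/cJ and Pdk4 and Bmp8b of DBA/2J lie below all C57BL/6J arrays, and the 8 C3H/HeJ arrays of Fgf21 spread from 2.31 to 5.27.

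Correlation with Ucp1 was measured in 2 ways, over the means of the 95 strains and over the deviations of the 360 arrays from their strain means, which hold no strain difference. Biweight midcorrelation (bicor), which gives outlying values less weight, was tested over 45140 probe sets with Benjamini-Hochberg adjustment. Across strains 19 of the 27 other genes were positively correlated with Ucp1 and 0 negatively, against 7.82% and 7.26% of all probe sets. Within strains 22 were positively correlated and 0 negatively, against 12.3% and 10.8%. The median bicor was 0.358 across and 0.323 within strains, while that of all probe sets was 0.015 and 0.016.

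Pank1 and Letmd1 followed Ucp1 most closely across strains. The bicor of Pank1 was 0.63 across strains (adjusted p = 6.96e-09) and 0.61 within them (adjusted p = 1.45e-25). Its Pearson r across strains was 0.69 and its Spearman rho 0.62, each with a permutation p of 1e-05, the smallest that 100000 permutations can give. Without LG/J and CXB8/HiAJ, the 2 strains farthest from the median of Ucp1, r was 0.63. Letmd1 had a bicor of 0.61 across strains and 0.47 within, and r was 0.63 with all strains and 0.60 without those 2. Across strains they were followed by Ebf2 (bicor 0.58), Cpt1b (0.56), Adcy3 (0.53), and Clstn3, Gpd2 and Elovl3 (0.50 each).

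Within strains the order was another one. Adcy3, which makes the cAMP of the pathway, came first with a bicor of 0.68 (adjusted p = 3.27e-34) and held rank 4 among all 17096 genes. Elovl3 (0.64, rank 15) and Clstn3 (0.62, rank 21) were next. These 3 genes also had wide ranges between strains, and r across strains without LG/J and CXB8/HiAJ was 0.51 for Adcy3 and Elovl3 and 0.50 for Clstn3, against 0.62, 0.59 and 0.67 with them. Kcnk3 (0.48), Bmp8b (0.30) and Slc27a2 (0.32) were called within strains but not across them, where their bicor was 0.27, 0.08 and 0.24, with adjusted p of 0.0514, 0.674 and 0.0884. Kcnk3 was called across strains by Pearson's r (0.36, adjusted p = 0.00398), by Spearman's rho (0.27, adjusted p = 0.0471) and among probe sets above the median mean (adjusted p = 0.0299), so its absence there rests on the setting. Fgf21 was called across strains (0.31, adjusted p = 0.0225) and not within them (0.15, adjusted p = 0.0618). By Pearson's r this turned round, with 0.19 across (adjusted p = 0.224) and 0.18 within (adjusted p = 0.0137), and the call across strains was also lost with the smooth muscle score (adjusted p = 0.234) or family means (adjusted p = 0.196) taken out. The differences between the 2 kinds of correlation were not tested.

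Of the mitochondrial effectors, Cidea, Cox7a1 and Cox8b followed Ucp1 more loosely than Letmd1 and Gpd2 did. Cidea, Cox7a1 and Cox8b lie near the top of the array with small spreads. Gpd2 does so too (mean 12.13, SD among mice of a strain 0.14), with a bicor of 0.50 across and 0.36 within strains. The part of level and spread in these values was not tested. Cidea had a bicor of 0.46 across and 0.34 within strains, Cox7a1 0.36 and 0.26, and Cox8b 0.35 and 0.24. Among the regulators Ppargc1b had 0.35 and 0.47, Esrra 0.38 and 0.34, and Prdm16 0.35 and 0.30. Ppara had 0.29 (adjusted p = 0.0337) and 0.32, and its call across strains was lost without any one of LG/J, CXB8/HiAJ, BTBR T<+> tf/J, BXD44/RwwJ or NZW/LacJ, with adjusted p from 0.0548 to 0.0710. Dio2, for all its range, had 0.45 and 0.38. The genes called in neither way were Pdk4 (-0.06 and 0.06), Esrrg (0.23 and 0.03), Ckmt1 (-0.00310 and -0.05) and Lhx8 (-0.25 and -0.08), and Acot11 was called within strains alone (0.17, adjusted p = 0.0248).

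**Figure D5:**
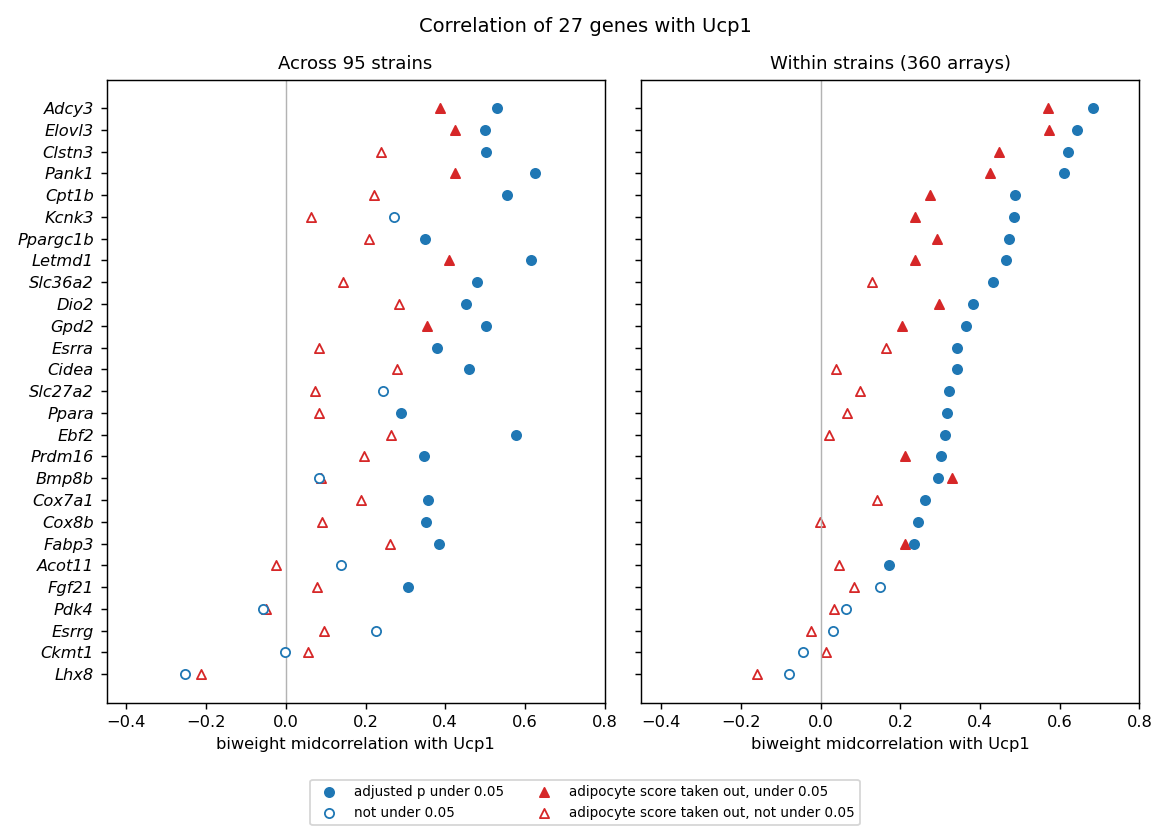
Biweight midcorrelation of each of 27 genes with Ucp1, over the means of 95 strains (left) and within strains (right, 360 arrays); blue circles are the values as measured, red triangles those after the general adipocyte score was taken out, and filled marks have an adjusted p under 0.05. No filled mark lies left of 0, and the triangles of Elovl3, Adcy3 and Pank1 stay filled in both panels.

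General adipocyte markers moved with Ucp1. The Pearson r of Ucp1 with the general adipocyte score was 0.51 across strains and 0.48 within them, and with the skeletal muscle score -0.24 and -0.28. When the adipocyte score was taken out of every probe set by regression, 5 of 27 genes were still called positive across strains, against 0.833% of all probe sets, and 0 negative, against 0.496%. These 5 were Elovl3 (0.43), Pank1 (0.42), Letmd1 (0.41), Adcy3 (0.39) and Gpd2 (0.35). Within strains 13 of 27 were called positive, against 4.94%, and 0 negative, against 5.07%, led by Elovl3 and Adcy3 (0.57 each), Clstn3 (0.45), Pank1 (0.43) and Bmp8b (0.33). The median bicor over the 27 genes fell from 0.358 to 0.189 across strains and from 0.323 to 0.163 within them.

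Strains of 1 recombinant inbred set share their parents, and the relation was therefore read within families too. With family means taken out, 16 of 27 genes were called positive and 0 negative, against 6.20% and 5.17% of all probe sets. Within the 31 classical inbred strains 9 were called, against 2.43% of all probe sets. Within the 33 BXD strains 0 were called, against 0.0510%, and 10 had an unadjusted p under 0.05. Within the 19 AXB/BXA strains 0 were called, against 0.00%, and 5 had an unadjusted p under 0.05. The sign was positive for 23 of 27 genes in BXD, 23 in AXB/BXA and 26 in the classical strains. Shares of all probe sets with a positive sign or an unadjusted p under 0.05 were not counted here, and the 27 genes are correlated with each other. Elovl3 had a bicor of 0.64 in BXD, 0.65 in AXB/BXA and 0.45 in the classical strains, Pank1 0.47, 0.71 and 0.68, and Adcy3 0.50, 0.54 and 0.52, so these values were positive in every family read. Ppara (-0.06) turned negative in BXD, and Prdm16 (-0.21), Dio2 (-0.06) and Fgf21 (-0.09) did in AXB/BXA, none of them called there.

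Other tissues moved with some of the genes as well. Smooth muscle markers ran against Esrra (r = -0.69 across and -0.55 within strains), Cox8b (-0.62 and -0.34) and Cox7a1 (-0.50 and -0.41). Skeletal muscle markers ran with Fabp3 (0.18 and 0.45), Esrrg (0.33 and 0.32) and Ckmt1 (0.16 and 0.27), and Fabp3 and Esrrg are used by muscle too. With the smooth muscle score taken out, 15 of 27 genes were called positive with Ucp1 across strains, against 6.23% of all probe sets, and 21 within them, against 11.7%. None was called negative, against 4.74% and 9.73%. The part of these tissues in each value was not tested further. Among themselves, the 28 genes form 378 pairs, with a median r of 0.254 across and 0.220 within strains, and r was above 0 for 293 and 306 of them. The highest r across strains was that of Clstn3 and Adcy3 (0.76), and within strains that of Letmd1 and Gpd2 (0.72).

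The genes most like Ucp1 were mostly not on the list. Across strains the first 10 of 17096 genes were Ctsz (bicor 0.77), 4931406C07Rik, Rnf7, Idh3a, Msantd3, Ebf3, Etfdh, Tmem41a, Tada2b and Armc1 (0.70). Idh3a is a subunit of isocitrate dehydrogenase of the citric acid cycle, and Etfdh passes electrons from fatty acid oxidation to the respiratory chain. Within strains they were Pla2g7 (0.71), Apmap, Paqr9, Adcy3, Abhd15, Slc25a17, Tmed5, Dock8, Atp6v0a2 and Ctsz (0.67). Ctsz, a lysosomal protease, was in both sets of 10, and Adcy3 was the one gene of the list among them.

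The pathway around Ucp1 was read from 4 lists of other genes. Of all probe sets, 7.82% were called positive and 7.26% negative across strains, and 12.3% and 10.8% within them. The values are those before the adipocyte score was taken out. Taking it out lowered the calls of all probe sets from 6806 to 600 across strains and from 10456 to 4516 within them. In lipolysis and fuel uptake (14 of 16 read), 9 were positive, 1 negative and 4 not called across strains, and 9, 2 and 3 within them. Mgll, which completes the breakdown of triglycerides, had a bicor of 0.63 and 0.62, and Cpt2, the second carnitine palmitoyltransferase, 0.66 and 0.57. Angptl4, an inhibitor of lipoprotein lipase, ran the other way (-0.47 and -0.20), and Slc2a1, a glucose transporter, was called negative within strains (-0.23). In beta-adrenergic and cAMP signalling (11 of 14), 4 were positive and 1 negative across strains and 6 and 0 within them. Here Pde3b, which breaks down cAMP, had 0.36 and 0.46 and the transcription factor Atf2 0.46 and 0.42, whereas Creb1 had -0.37 (adjusted p = 0.00354) and -0.14 (adjusted p = 0.0855).

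Of the nuclear factors of the programme (16 of 16), 4 were positive and 3 negative across strains, and 7 and 3 within them. Cebpb had 0.65 and 0.50 and the coactivator Ncoa1 0.27 and 0.44, while the deacetylase Sirt1 had -0.47 and -0.20 and Cebpd -0.29 and -0.17. Genes of heat production without UCP1, such as calcium and creatine cycles (8 of 13), were 2 positive and 6 negative in both ways. The positive ones were Gpd1, the cytosolic partner of Gpd2 in the glycerol phosphate shuttle (0.47 and 0.37), and Ucp3 (0.45 and 0.50). Among the negative ones, the creatine transporter Slc6a8 had -0.58 and -0.45 and the creatine synthesis enzyme Gamt -0.41 and -0.34. Several of the negative genes, such as Atp2a1, Ryr1 and Ckmt2, are also expressed by striated muscle. Of the skeletal muscle markers 9 of 10 were negative within strains and 1 across them, and of the cardiac ones 3 of 7 and 0. The part of muscle in the values of these genes was not tested further.

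Markers of cell types were counted in the same way, against the same shares of all probe sets and before the adipocyte score was taken out. All 6 general adipocyte markers were positive within strains and 4 across them, among them Pparg (0.36 within, 0.48 across) and Pnpla2 (0.40 and 0.33). Of 8 white adipocyte markers 1 was positive and 3 negative in each way, though not the same 3. Hoxc8 was positive (0.34 within, 0.46 across), and Retn, which encodes resistin, (-0.25 and -0.46) and Nrip1, a corepressor, (-0.24 and -0.46) were negative in both. Lep was called negative within strains alone (bicor -0.18, adjusted p = 0.0216), and Psat1 across them alone (bicor -0.35, adjusted p = 0.00676). Of 5 beige markers 2 were positive and 1, Tbx1 (-0.26), negative within strains, and Tbx1 alone was called across them (-0.39). Of 10 skeletal muscle markers 9 were negative within strains and 1, Ckm (-0.38), across them. Of 7 cardiac markers 3 were negative within strains and 0 across, of 6 smooth muscle markers 1 was negative in both ways (Lmod1, -0.18 within and -0.29 across), and of 7 hepatocyte markers 1 was positive within strains. None of the 5 sympathetic nerve markers was called, with bicor between -0.06 for Slc6a2, the noradrenaline transporter, and 0.05 for Chga across strains.

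Probe sets of 1 gene did not always vary together. In 9 of 21 pairs of the probe set read and another one of the gene, the Pearson r over strain means was under 0.7, and these pairs came from 7 of 13 genes (Prdm16, Dio2, Kcnk3, Acot11, Letmd1, Esrrg and Gpd2). The probe set read for Adcy3 and its other one had a Pearson r of 0.97 over strain means and 0.94 within strains, and for Dio2 a dimmer probe set had 0.92 and 0.90, while another, dimmer still, had 0.65 and 0.57. For Prdm16 the other 3 had 0.76, 0.39 and 0.16 over strain means. Their extreme strains were not those of the probe set read: in the same order they ran from NOD/ShiLtJ to CE/J, from CXB8/HiAJ to CE/J and from NOD/ShiLtJ to DBA/2J. For Acot11 a dim probe set had 0.40 and 0.35. For Gpd2 a probe set with a mean of 11.10 had 0.54 and 0.08, and for Esrrg one with a mean of 2.92 had 0.10 and 0.13. For Letmd1 a dimmer probe set had 0.55 and 0.42 and ran from FVB/NJ to BXA16/PgnJ, and for Kcnk3 one had 0.54 and 0.47. The other probe sets of Dio2 spanned 12.1-fold, lowest in LG/J, and 12.6-fold, lowest in SJL/J. LG/J was lowest in the Gpd2 probe set read and in those with means of 11.49 and 11.10, and FVB/NJ in a dim one. The strain order of the 7 genes named above therefore depends on the probe set read.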

How the data were processed

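Total RNA of 366 aortas was measured on Affymetrix arrays, which the labels name HT_MG-430A and the study's methods HT-MG_430 PM. The deposited values are log2 intensities that the authors made with GCOS and RMA (versions not given in the sources used here), which evens out the distributions of probe intensities before probe sets are summarised and so can hide a shift shared by all genes. Array medians of the deposited values still ran from 3.17 to 3.40. Values ran over 45141 probe sets, of which 28898 have 1 gene symbol, 551 several and 15692 none. No 2 arrays were identical, and 0 columns belonged to no sample of the series. The number of arrays of a strain limits the precision of its mean.

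Strains were taken from the labels. The array number within a strain follows the order of the records. Differences among strains (F test, 265 residual degrees of freedom) and founder contrasts, from the same fit over 95 strains, used limma 3.58.1 in R 4.3.3. Correlations with Ucp1 used biweight midcorrelation (constant 9), with p from Student's t distribution (264 degrees of freedom within strains counted from arrays and strains), and permutation p used 100000 resamples. The threshold was 0.05 after Benjamini-Hochberg adjustment over all probe sets, and tests were two-sided. Shares of variance are intraclass correlations over strains, with 95% intervals. Scripts were tested on simulated data. Tissue scores were means of standardised marker values.

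Named genes were all genes read, the 10 most like Ucp1 in each way, the 2 highest and 2 lowest of each list within strains, and the 5 highest and 5 lowest strains of Ucp1. Lep, Psat1, genes of the UCP1-independent list named for muscle expression, and strains at the ends of other genes were picked after their values were seen. The genes and lists were chosen with earlier results of these data known. Alternatives covered statistic, arrays per strain, left-out arrays and strains, array weights (estimated on every 45th probe set), variance prior, dim probe sets (means above 3.28), probe set choice, the first principal component of within-strain deviations (17.5% of their variance), tissue scores and strain families. The smooth muscle score and the ranges without NOD/ShiLtJ were added after the data were seen. Lesion and other traits were not used.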

Additional observations from a re-analysis of the deposited data

Results flagged for a closer look

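In 9 of 139 groups of 4 to 8 arrays tested, 1 array lay farther from the rest of its group than Dixon's 95% critical value allows, where chance gives about 1 in 20. In BALB/cJ, 1 array was lowest in Cpt1b at 10.33 (next 10.59), and 1 was lowest in Letmd1 at 10.33 (next 10.52). In C3H/HeJ the third array was lowest in Ucp1 at 12.66, with the next at 12.89 and the highest at 13.05, and 1 array was highest in Letmd1 at 11.04 (next 10.82). In DBA/2J, 1 array was lowest in Ppara at 10.30 (next 10.66), 1 in Ebf2 at 8.31 (next 8.66) and 1 in Esrrg at 6.34 (next 6.91). In CXB8/HiAJ, the second lowest strain of Ucp1, 1 array was highest in Elovl3 at 10.34 (next 9.77). In FVB/NJ, 1 array was highest in Dio2 at 7.86 (next 6.89). The cause of these single values was not tested.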

How the results depend on the processing

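The strain differences of the 28 genes were 25 to 28 calls under every alternative run, where 25 came from leaving out dim probe sets, which kept 25 genes. Of all probe sets, 34765 of 45141 were called in the main fit, 39986 of 45141 with array weights and 21625 of 22570 with that filter. These counts therefore do not set the 28 genes apart. The calls of the 28 genes were 26 to 27 when array 1, 2, 3 or 4 of each strain was left out (27 in each with the adipocyte score). Those of all probe sets were then 29506 to 31262 (29523 to 31075 with the score). The founder contrasts were less stable. The count called in A/J was 0, and it was 3 with array weights, 1 with the adipocyte score (all probe sets 2050) and 2 with the smooth muscle score. In BALB/cJ it was 1, and 4 with array weights, 5 when the fit held only the 5 founder groups and 2 among probe sets above the median mean. In the same order, 2847, 3784 and 3194 of all 45141 probe sets and 3244 of the 22570 above the median mean were called. In C3H/HeJ it was 3, and 9 with the adipocyte score (all probe sets 4020 and 3569) and 1 among probe sets above the median mean (4184 of 22570). That filter left out Fgf21 and Lhx8, and Bmp8b stayed called (limma, adjusted p = 0.00589). In DBA/2J it was 4, and 8 with array weights and 1 in the fit of 5 groups (all probe sets 1594). Leaving out 1 array gave 0 in A/J, 0 to 1 in BALB/cJ, 2 to 4 in C3H/HeJ and 1 to 5 in DBA/2J. The calls of all probe sets were then 1086 to 2241, 1709 to 2964, 2559 to 4277 and 1134 to 1752, in the same order. Over all probe sets, array weights moved the calls from 2229 to 4592 in A/J and from 1664 to 6408 in DBA/2J, and the smooth muscle score moved them to 3595 and 2768. The count of genes correlated with Ucp1 across strains was 19, and it was 5 with the adipocyte score taken out, 0 within BXD, 0 within AXB/BXA and 9 within classical inbred strains, and 18 to 20 when 1 strain was left out. Over all probe sets these settings moved the calls from 6806 to 600, 27, 0 and 1548, and to between 5943 and 7760 without 1 strain. Within strains the count was 22, and 13 with the adipocyte score taken out (all probe sets 10456 and 4516). It was 20 to 22 when 1 array of each strain was left out (all probe sets 6973 to 8402). Fewer strains in a family alone lower what can be called. Apart from this and from the genes left out by the filter, the cause was not tested.

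The sign of some single correlations turned. Across strains, with the smooth muscle score taken out, Mylk had 0.35. Within BXD, Ppara had -0.0582. Within AXB/BXA, Prdm16 had -0.21, Dio2 -0.0592, Fgf21 -0.0890, Pnpla2 -0.0244, Pparg -0.0668, Tbx1 0.0565 and Ckm 0.17. Within strains, Pearson's r was -0.0462 for Serpina1a and -0.17 for Fgb. With the adipocyte score taken out, Cox8b had -0.00102 and Dgat2 -0.19. With the muscle scores taken out, Myh2 had 0.22 and Acta1 0.14. With the first principal component taken out, Myh2 had 0.25, Acta1 0.21, Actn3 0.18 and Ckm 0.14. The call of Kcnk3 across strains was gained in 34 of 95 runs without 1 strain, and Lhx8 was called negative without BALB/cByJ, BXA7/PgnJ or MA/MyJ. Acot11 lost its call within strains in 6 settings. No paired analysis was possible because the labels give no array numbers that groups share, and the numbers used follow the order of the records. The brightest genes lie near the top of the array and the dimmest near its floor, and how far the scale is compressed there was not tested.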

Other observations

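Of the 101 strains, 6 had 1 array each and entered no comparison. Their Ucp1 values lay within the range of the other strains' arrays: 13.01 in BXA1/PgnJ, 12.91 in BXA25/PgnJ, 12.85 in BXD2/TyJ, 13.08 in BXD22/TyJ, 12.93 in BXD34/TyJ and 12.83 in CXB11/HiAJ. Elovl3 read 10.70 in BXA1/PgnJ, 10.59 in BXA25/PgnJ, 10.94 in BXD2/TyJ, 11.14 in BXD22/TyJ, 10.73 in BXD34/TyJ and 10.44 in CXB11/HiAJ. Dio2 ranged from 6.88 in CXB11/HiAJ to 9.29 in BXA25/PgnJ.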
